A study of Mus musculus with 14 samples.

Results

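Mitochondrial ribosomal protein genes were followed through 14 RNA-seq libraries of mouse stem cell lines treated with STM2457 or DMSO. They were chosen as the protein-coding genes of the deposited count table whose symbol is Mrpl or Mrps followed by a number, with or without a letter. This gave 78 genes of 55416 in the table, 49 named for the large subunit (Mrpl) and 29 for the small subunit (Mrps). A filter on low counts left 77 of them among the 18430 genes tested. The one that did not pass was Mrpl53, which had 0 counts in all 14 libraries. A count of 0 over the libraries of a group allows a level of up to 0.0683 to 0.144 CPM (counts scaled to library size by TMM), depending on the group and for counting error only. In the annotation, 88.0% of the exonic bases of Mrpl53 are shared with another gene model on the same strand, Gm42688.

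STM2457 is an inhibitor of METTL3, the methyltransferase that writes N6-methyladenosine (m6A) on messenger RNA, and DMSO is its solvent. Cells were exposed for 12 h at 50 µM. Extraembryonic endoderm stem cells (XEN) gave 3 STM2457 and 3 DMSO libraries. Trophectoderm stem cells (TSC) gave 2 of each, as did epiblast stem cells (EpiSC). All lines are labelled as hybrids of Mus molossinus and Mus musculus. XEN and TSC are labelled wild type, and EpiSC carry the genotype XmolXmus-<delta>Tsix in the STM2457 and the DMSO arm alike. The TSC medium was conditioned by mouse embryonic fibroblasts. Each kind of cell is represented by one line, and the labels do not say whether libraries came from separate cultures, so p-values measure the spread between these libraries, which may be technical.

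The mitochondrial ribosome makes the small set of inner membrane proteins of the respiratory chain and ATP synthase that mitochondrial DNA encodes. Its ribosomal RNAs are transcribed in the organelle, while all of its proteins are encoded in the nucleus, made in the cytosol and imported. Some of these proteins have counterparts in bacteria and others exist only in mitochondria. The m6A mark on nuclear transcripts is known to sit mostly in long exons and around stop codons, is depleted near exon junctions, and is best known for shortening the life of the transcripts that carry it.

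Library totals were 6826496 to 10024628 counts in XEN, 17909934 to 20354242 in TSC and 18640099 to 21097380 in EpiSC. The 2 mitochondrial ribosomal RNAs took 12.0% to 16.01% of the counts in XEN libraries and 0.0366% to 0.0505% in the others. Genes that mark each line were present where they belong. The 10 endoderm markers summed to at least 43735 CPM in XEN libraries and at most 539 in TSC and 1055 to 1125 in EpiSC, and no TSC marker in TSC and no EpiSC marker in EpiSC was at 0 in a whole arm. The EpiSC markers also summed to 485 to 538 CPM in TSC, where Pou5f1 was at 0. The 9 EpiSC markers summed to 1423 and 1484 CPM in the STM2457 libraries of EpiSC, against 1743 and 1824 in DMSO. The 8 markers of embryonic fibroblasts summed to 46.4 to 59.5 CPM in EpiSC, 14.6 to 20.1 in TSC and 5.00 to 8.90 in XEN, and 7 markers of differentiated trophoblast to at most 1.84 in any library. The part of any of these in the values below was not tested.

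The promoters of the members on which the treatment comparisons turn are shown first: Mrpl43, Mrps2, Mrpl46 and Mrpl16, the 4 members called in all 3 lines, and Mrps7, which follows them and Mrps34 in mean effect. Mrps7 is a small subunit protein with a bacterial counterpart that is known from bacteria to start assembly of the subunit's head. Each run reaches across the transcription start given by RefSeq on GRCm38.p6, 5′ to 3′ along the gene. Capitals mark matches on either strand to CCGGAAG (the core of the site bound by ETS family factors), AAGATGGC (YY1), GGGCGG (SP1) and TATAAA (the TATA box).
Mrpl43, chr19:45006393-45006692, minus strand: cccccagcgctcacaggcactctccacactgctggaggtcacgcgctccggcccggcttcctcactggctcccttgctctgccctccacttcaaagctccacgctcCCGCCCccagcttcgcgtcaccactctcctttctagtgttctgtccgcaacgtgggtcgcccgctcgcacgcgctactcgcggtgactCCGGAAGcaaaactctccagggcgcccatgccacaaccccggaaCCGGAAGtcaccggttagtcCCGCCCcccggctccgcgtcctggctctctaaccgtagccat
Mrps2, chr2:28467816-28468115, plus strand: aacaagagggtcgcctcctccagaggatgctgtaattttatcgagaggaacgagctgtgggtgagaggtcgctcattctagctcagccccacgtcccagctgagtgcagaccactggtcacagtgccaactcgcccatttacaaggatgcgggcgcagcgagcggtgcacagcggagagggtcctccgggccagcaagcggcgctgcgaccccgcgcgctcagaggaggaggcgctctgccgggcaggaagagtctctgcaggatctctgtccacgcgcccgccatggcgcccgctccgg
Mrpl46, chr7:78783040-78783339, minus strand: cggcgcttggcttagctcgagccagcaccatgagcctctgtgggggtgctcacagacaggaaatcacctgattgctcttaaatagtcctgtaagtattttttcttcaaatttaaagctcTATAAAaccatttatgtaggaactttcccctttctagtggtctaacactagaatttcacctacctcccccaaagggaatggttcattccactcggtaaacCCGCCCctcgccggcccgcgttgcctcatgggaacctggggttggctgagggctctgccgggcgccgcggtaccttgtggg
Mrpl16, chr19:11770165-11770464, plus strand: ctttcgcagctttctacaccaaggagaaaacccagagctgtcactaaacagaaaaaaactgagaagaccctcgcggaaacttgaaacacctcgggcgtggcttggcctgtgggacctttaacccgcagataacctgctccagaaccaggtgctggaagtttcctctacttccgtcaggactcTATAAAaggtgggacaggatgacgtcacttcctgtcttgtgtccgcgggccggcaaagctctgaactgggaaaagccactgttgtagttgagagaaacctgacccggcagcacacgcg
Mrps7, chr11:115603890-115604189, plus strand: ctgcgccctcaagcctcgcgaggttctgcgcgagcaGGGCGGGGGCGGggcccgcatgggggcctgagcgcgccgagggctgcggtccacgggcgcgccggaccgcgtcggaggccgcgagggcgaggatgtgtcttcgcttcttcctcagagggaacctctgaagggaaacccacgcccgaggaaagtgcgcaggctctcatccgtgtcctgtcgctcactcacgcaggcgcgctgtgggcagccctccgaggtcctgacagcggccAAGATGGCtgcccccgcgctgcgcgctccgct

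Promoter windows were found for 69 of the 78 members. The ETS core CCGGAAG stood in 26 of them (37.7%), against 13.4% of 16522 protein-coding genes with a window of the same length. The YY1 word AAGATGGC stood in 12 (17.4%, against 3.64% of all), and the NRF1 word GCGCATGC in 8 (11.6%, against 4.11%). NRF1, YY1 and the ETS factor GABP are known regulators of nuclear genes for mitochondrial proteins. GGGCGG was in 49.3% of the members and 51% of all genes, CCAAT, bound by NF-Y, in 39.1% and 42.1%, and TATAAA in 7.25% and 14.3%. All words were sought on both strands, and no ETS match shared bases with a YY1 match. The ETS word was held by 15 of 43 large and 11 of 26 small subunit genes. Of the promoters of the 4 members called in all lines, only that of Mrpl43 held an ETS match, with 2 copies printed above, and those of Mrps2, Mrpl46 and Mrpl16 were among the 31 members with none of the ETS, YY1 and NRF1 words. These matches describe letters in the window and are not binding sites.

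Levels differed widely among the members. As CPM per kilobase of exonic length (RPKM), averaged over all 14 libraries, the highest were Mrpl34 at 92.7, Mrpl12 at 74.6, Mrpl10 at 68.9, Mrpl43 at 60.7 and Mrpl18 at 57.1. Mrpl34 and Mrpl18 are large subunit proteins with bacterial counterparts. Mrpl10 and Mrpl12 form the flexible stalk of the large subunit, which recruits translation factors. The lowest of the tested members were Mrpl48 at 2.51 RPKM, Mrps35 at 4.14, Mrps10 at 4.35 and Mrpl33 at 4.84, all with long annotated exonic sequence (7326 bases for Mrpl33 to 8631 for Mrps35, against 607 for Mrpl34), and Mrpl53 was at 0. Mrpl12 ranked first among the members in both arms of TSC, 20 in STM2457 and 29 in DMSO in XEN. In TSC it stood at 136 RPKM in STM2457 and 116 in DMSO, in EpiSC at 111 and 78.8, and in XEN at 31.9 and 21.0.

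In XEN cells, 12 members were called higher after STM2457 and 0 lower at an adjusted p under 0.05. This is 15.6% of the 77 tested, where 4.15% of all tested genes were called (3.07% higher and 1.08% lower). They comprised 7 of 48 large subunit genes (Mrpl43, Mrpl46, Mrpl16, Mrpl40, Mrpl51, Mrpl19 and Mrpl15) and 5 of 29 small subunit genes (Mrps2, Mrps34, Mrps12, Mrps7 and Mrps17). The calls came from edgeR's quasi-likelihood test with Benjamini-Hochberg adjustment over all tested genes. At an unadjusted p under 0.05 there were 28 members (36.4%, against 17.3% of all genes). DESeq2 called 15, 14 higher and 1 lower, with all 12 among them, and 13.2% of all the genes it gave an adjusted p. The median log2 fold change was 0.17 over the members and 0 over all tested genes. In these bulk libraries fewer cells of a type and less RNA per cell cannot be told apart.

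Mrpl43 encodes a large subunit protein found only in mitochondria. It stood at 158, 167 and 159 CPM in the STM2457 libraries of XEN, against 80.5, 68.9 and 77.3 CPM in DMSO. Every STM2457 library was above every DMSO library, and the log2 fold change was 1.09 ± 0.09 (SE; edgeR adjusted p = 3.99e-06), a 2.13-fold rise. Mrps2, a small subunit protein with a bacterial counterpart, had 85.7, 70.4 and 65.3 CPM in STM2457 and 34.0, 33.0 and 35.1 CPM in DMSO. The arms did not overlap, and the log2 fold change was 1.12 ± 0.11 (adjusted p = 2.45e-05). Mrps34, a small subunit protein specific to mitochondria, had 45.0, 37.5 and 48.5 CPM in STM2457, against 25.7, 20.4 and 23.9 CPM in DMSO. Its arms were also apart, with a log2 fold change of 0.90 ± 0.12 (adjusted p = 0.000424).

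Mrpl46, in the central protuberance of the large subunit, had 51.8, 44.0 and 60.4 CPM in STM2457 and 32.3, 19.7 and 29.0 CPM in DMSO in XEN. The lowest STM2457 library stood above the highest DMSO library, and the log2 fold change was 0.94 ± 0.15 (adjusted p = 0.00209). Mrpl16, a large subunit protein with a bacterial counterpart near the catalytic centre, had 113, 120 and 125 CPM in STM2457, against 85.9, 65.1 and 72.4 CPM in DMSO. Its log2 fold change was 0.68 ± 0.11 (adjusted p = 0.00233). The remaining 7 calls were smaller, from 0.42 for Mrpl15 to 0.61 for Mrpl40 on the log2 scale. Mrps12, of the decoding centre, and Mrps7 rose by 0.54 each. Mrpl51 was the weakest of the 12 (adjusted p = 0.0447), and its STM2457 values of 57.5 to 68.0 CPM stood above the DMSO values of 32.5 to 50.9.

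Same-numbered STM2457 and DMSO libraries of XEN deviated together, and with the replicate number as a block 24 members were called in XEN, 23 higher and 1 lower, where 13.3% of all genes were (7.94% higher and 5.33% lower). The 1 lower was Mrps22, a small subunit protein specific to mitochondria, at a log2 fold change of -0.42 ± 0.10 (adjusted p = 0.00631). Without the block it had 24.4, 19.1 and 20.3 CPM in STM2457, against 32.1, 27.0 and 26.6 CPM in DMSO, and was not called (adjusted p = 0.062). Among the 12 added by the block were Mrps23, Mrpl12 and Mrpl44. Scaling to the cytosolic ribosomal protein genes left 5 of the 12 calls in XEN, all higher: Mrpl16, Mrpl43, Mrpl46, Mrps2 and Mrps34. Leaving out 1 XEN library ended the call of Mrps17 (STM2457 replicate 1 or 2, or DMSO replicate 3), Mrpl19 (STM2457 replicate 1, or DMSO replicate 2 or 3), Mrpl15 (any STM2457 replicate, or DMSO replicate 2) and Mrpl51 (STM2457 replicate 1 or 3, or DMSO replicate 2 or 3). XEN libraries fitted without the other lines left 2, Mrpl43 and Mrps2, with 0.191% of all genes called.

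**Figure D1:**
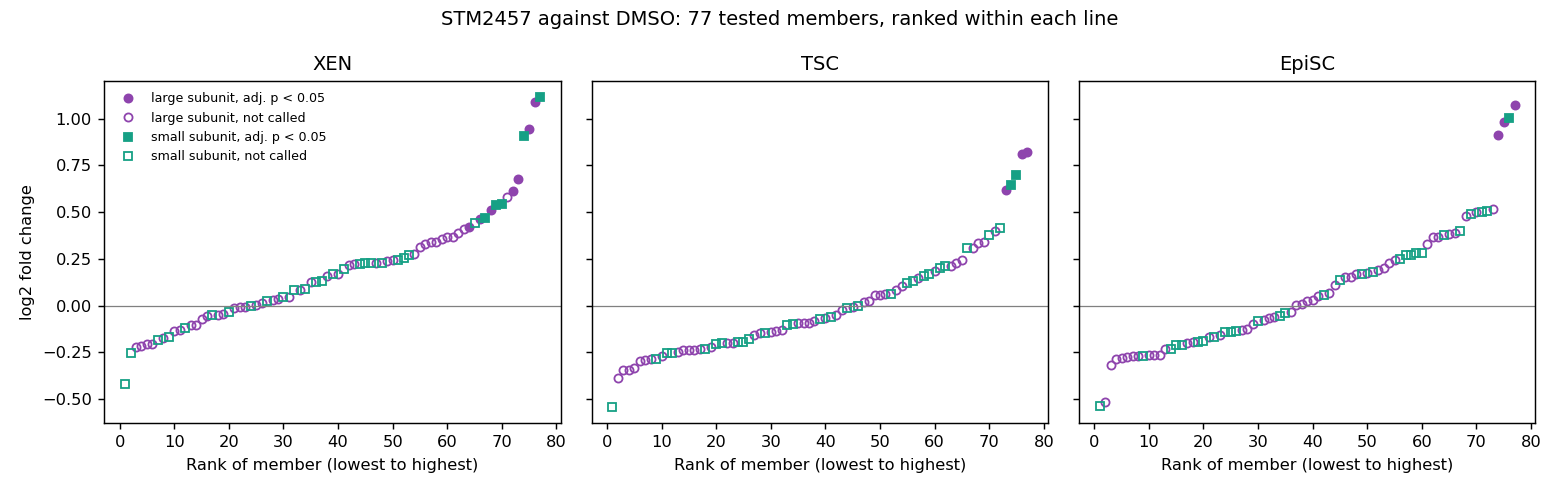
Log2 fold changes of the 77 tested members in STM2457 against DMSO, ranked from lowest to highest within XEN, TSC and EpiSC (circles, large subunit; squares, small subunit; filled, adjusted p under 0.05 in edgeR). In the fit of all 14 libraries, 12 members were called in XEN, 5 in TSC and 4 in EpiSC. These called members all lie above 0, in TMM scaling and in the other scalings tried for these calls. Fits of each line alone called 2, 32 and 45 members in XEN, TSC and EpiSC, where 0.191%, 30.2% and 29.2% of all genes were called.

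In TSC, 5 members were called higher and 0 lower (6.49% of the tested members, against 0.966% of all genes in edgeR, 0.836% higher and 0.13% lower). They were Mrpl43, Mrps2, Mrps34, Mrpl46 and Mrpl16, and 16 members had an unadjusted p under 0.05 (20.8%, against 13.4% of all genes). DESeq2 called 7 higher and 4 lower, including these 5, and 7.86% of all genes. Mrpl43 had 84.4 and 86.0 CPM in STM2457, against 49.6 and 47.5 CPM in DMSO, a log2 fold change of 0.81 ± 0.10 (edgeR adjusted p = 0.00134). Mrpl46 had 56.9 and 53.8 CPM in STM2457 and 30.7 and 32.1 CPM in DMSO, a log2 fold change of 0.82 ± 0.17 (adjusted p = 0.0309). The arms of both genes were well apart in TSC.

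Mrps2 stood at 137 and 134 CPM in the STM2457 libraries of TSC, against 83.7 and 83.2 CPM in DMSO (log2 fold change 0.70 ± 0.12, edgeR adjusted p = 0.0109). Mrps34 had 58.6 and 54.3 CPM in STM2457 and 36.3 and 35.8 CPM in DMSO, a log2 fold change of 0.65 ± 0.13. Mrpl16 had 72.4 and 69.5 CPM in STM2457, against 44.1 and 48.4 CPM in DMSO, a log2 fold change of 0.62 ± 0.13. In each of the 3 genes both STM2457 values exceeded both DMSO values. With the TSC libraries fitted without the other lines, 32 members were called, where 30.2% of all genes were (16.3% higher and 13.9% lower). The split of the 32 is not given here. In the fit of all 14 libraries, the call count in TSC rests on each of the 4 TSC libraries. Without any one of the 4 it fell to 0 or 1, and the 1 was Mrpl43, which was still called without either STM2457 library. The fold changes moved little in these fits, those of Mrps2 staying between 0.68 and 0.72. The median over the members was -0.07 and became 0.07 with scaling to the cytosolic ribosomal protein genes, which moved the median of all genes by 0.14 in TSC and 0.13 in EpiSC on the log2 scale.

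In EpiSC, 4 members were called higher and 0 lower (5.19%, against 1.68% of all genes in edgeR, 1.28% higher and 0.402% lower), with 27 at an unadjusted p under 0.05 (35.1%, against 14.8% of all genes). DESeq2 called 13 higher and 2 lower, with these 4 among them, and 8.54% of all genes. Mrpl43 had 107 and 107 CPM in STM2457, against 49.9 and 51.7 CPM in DMSO (log2 fold change 1.07 ± 0.10, edgeR adjusted p = 0.000142). Mrps2 had 170 and 177 CPM in STM2457 and 90.7 and 82.5 CPM in DMSO (1.00 ± 0.12, adjusted p = 0.000821). The arms of both genes were far apart.

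Mrpl16 had 84.6 and 102 CPM in the STM2457 libraries of EpiSC, against 49.2 and 45.2 CPM in DMSO, a log2 fold change of 0.98 ± 0.13 (edgeR adjusted p = 0.00211). Mrpl46 had 63.2 and 62.2 CPM in STM2457 and 32.0 and 34.5 CPM in DMSO, a log2 fold change of 0.91 ± 0.17 (adjusted p = 0.0109). Mrps34 just missed the threshold in EpiSC, with 102 and 95.3 CPM in STM2457 against 68.1 and 71.6 CPM in DMSO (0.50 ± 0.13, adjusted p = 0.0574). Both of its STM2457 values were above both DMSO values, which with 2 libraries per arm does not stand in for a call. Leaving out 1 of the 4 EpiSC libraries left 1 to 3 calls, and the 1, without DMSO replicate 2, was Mrpl43. The call of Mrps2 was lost without DMSO replicate 2, that of Mrpl16 without DMSO replicate 2 or STM2457 replicate 2, and that of Mrpl46 without any 1 of the 4. Mrps14, a small subunit protein with a bacterial counterpart, had the lowest log2 fold change in EpiSC at -0.54 ± 0.16 (adjusted p = 0.103), and Mrpl47 the next at -0.52 (adjusted p = 0.0797). Neither was called.

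**Figure D2:**
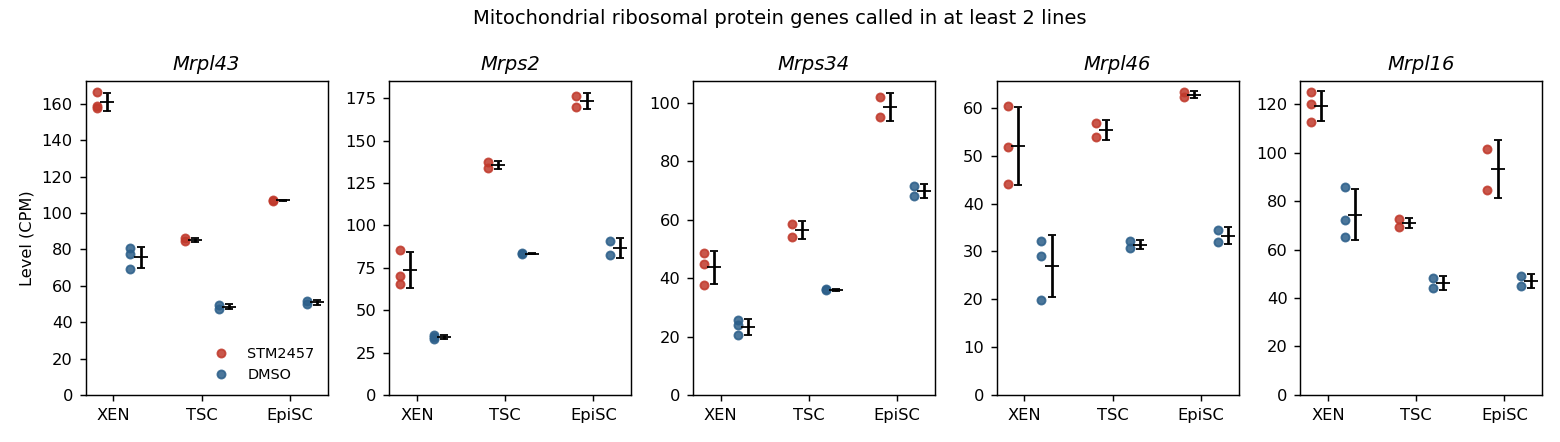
Levels (CPM, TMM-scaled) in each library of the 5 members called in at least 2 lines, with STM2457 left of DMSO within each line (points, libraries; black marks, mean ± SD of 3 libraries per arm in XEN and 2 in TSC and EpiSC). In all 5 genes and all 3 lines the lowest STM2457 library is above the highest DMSO library. The 5 were chosen by their calls, and the share of all genes with arms apart was not counted.

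Of the 18430 genes, 54 were called in all 3 lines, Mrpl43, Mrps2, Mrpl46 and Mrpl16 among them. Mrps34 was called in XEN and TSC. A test in edgeR of whether the STM2457 effect differed between lines called 0 members and 0.00543% of all genes (1 gene). At an unadjusted p under 0.05 there were 8 members (10.4%, against 5.24% of all genes). DESeq2 also called 0 members, with 80 genes called in all (0.687% of those it gave an adjusted p). With the replicate block 262 genes were called (1.42%), 0 of them members, and the smallest adjusted p of a member was 0.0690, for Mrps18a. With that block 20 members had an unadjusted p under 0.05 (26%, against 14.1% of all genes). Without the block the smallest p, singled out after the values were seen, was that of Mrpl4, a large subunit protein with a bacterial counterpart (unadjusted p = 0.00611, adjusted p = 0.764). Its log2 fold changes were 0.24 in XEN, -0.24 in TSC and -0.26 in EpiSC, none of them called. The 7 calls made only in XEN are therefore not shown to be particular to XEN.

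The mean of the 3 line effects called 20 members higher and 10 lower (39.0% of the tested members, against 13.4% of all genes in edgeR, 7.78% higher and 5.62% lower). Of the large subunit, 12 were higher and 7 lower, and of the small subunit 8 and 3. The 5 largest rises were Mrpl43 at 0.99 ± 0.06, Mrps2 at 0.94 ± 0.07, Mrpl46 at 0.89 ± 0.09, Mrpl16 at 0.76 ± 0.07 and Mrps34 at 0.68 ± 0.07 on the log2 scale. Among called members, Mrps7 followed at 0.45 ± 0.07, then Mrpl19 and Mrpl15, large subunit proteins with bacterial counterparts, at 0.41 each. Mrps12, Mrps17, Mrpl40, Mrpl44, Mrpl10 and Mrps23 rose by 0.25 to 0.33. Of these 6, all but Mrps12 lost the call without at least 1 TSC or EpiSC library, and each of the 8 TSC and EpiSC libraries cost at least 1 of them its call. Mrps30 rose by 0.37 ± 0.08 (adjusted p = 0.0054), and its protein sits in the large subunit despite the gene's name. Mrps18a, the other member so placed, had a mean log2 effect of 0.19 (adjusted p = 0.12, and 0.0102 with the replicate block), and Mrps36, whose protein is also known as a subunit of 2-oxoglutarate dehydrogenase, one of -0.08 (adjusted p = 0.686). With that block the mean effect called 42 members, 28 higher and 14 lower, where 25.6% of all genes were called.

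The falls in the mean effect were smaller than the leading rises. Mrps22 fell by 0.39 on the log2 scale (SE 0.07, edgeR adjusted p = 0.00205), with 32.1 and 33.3 CPM in STM2457 against 47.8 and 47.6 CPM in DMSO in TSC, and 36.1 and 33.7 CPM against 41.5 and 39.3 CPM in EpiSC. Its arms did not overlap in any line. Mrps14 fell by 0.31 (SE 0.09, adjusted p = 0.0287), with 37.4 and 36.4 CPM in STM2457 against 49.7 and 57.5 CPM in DMSO in EpiSC, while its arms overlapped in XEN. The call of Mrps14 was lost without any 1 TSC library and without any 1 EpiSC library but DMSO replicate 1. The other 8, named here after their values were seen, were Mrpl1, Mrpl24, Mrpl21, Mrpl2, Mrps31, Mrpl39, Mrpl42 and Mrpl49, at -0.26 to -0.19. Scaling to the cytosolic ribosomal protein genes gave 23 members higher and 0 lower in place of 20 and 10, where 7.56% of all genes were called. The 10 members that fell lost their call under it, with log2 effects still negative, at -0.31 for Mrps22 (adjusted p = 0.0526), -0.22 for Mrps14 and -0.18 to -0.11 for the others. Leaving out 1 library of the 14 gave 13 to 33 calls in place of 30. There were 14 or 15 without any 1 of the 4 TSC libraries, 13 and 17 without EpiSC STM2457 replicate 1 and 2, and 16 without EpiSC DMSO replicate 2.

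Genes that overlap a member can share its reads, and no source used here says whether the counting took strand into account. Of the 78 members, 28 share exonic bases with a gene on the opposite strand, 8 of them over 20% of their length, and 8 with a gene on the same strand. Mrps2 and Mrpl16 share none. Mrpl43 shares 33.4% with Twnk, the mitochondrial DNA helicase, whose log2 fold changes were 0.36 in XEN, -0.06 in TSC and 0.48 in EpiSC (adjusted p = 0.0823, 0.922 and 0.0746). Mrps34 shares 63.4% with Mapk8ip3 on the opposite strand, a kinase scaffold gene with log2 fold changes of -0.41, -0.08 and -0.14, none called, and 37.0% with Nme3 on the same strand, which was not tested for lack of counts. The values of Mrpl43 and Mrps34 are uncertain to that extent. Mrpl46 shares 12.2% with another member, Mrps11, a small subunit protein that lies head to head with it. Mrps11 was not called, with 0.23 in XEN, 0.20 in TSC and 0.27 in EpiSC. In all, 33 members start within 1000 bases of a protein-coding gene transcribed the other way.

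Other genes of mitochondrial translation were read from 5 lists. Of 25 genes for ribosome assembly and modification of mitochondrial ribosomal RNA, 3 were called higher and 0 lower in XEN, 3 higher and 0 lower in TSC, and 1 higher and 1 lower in EpiSC, and in the mean effect 8 higher and 3 lower (44%). The shares of all genes called by edgeR, which apply to each list, were 4.15% in XEN, 0.966% in TSC, 1.68% in EpiSC and 13.4% in the mean. DESeq2 called 5 higher and 1 lower in XEN, 4 and 1 in TSC, 3 and 1 in EpiSC, and 9 and 3 in the mean. Its shares of all genes, which also apply to each list, were 13.2% in XEN, 7.86% in TSC, 8.54% in EpiSC and 22.9% in the mean. Medians were 0.18, 0.10, 0.10 and 0.12 on the log2 scale. Mterf4, which is known to bring a methyltransferase to the large subunit, was higher in all 3 lines, at 0.85, 0.71 and 0.95 in XEN, TSC and EpiSC. It had 50.2 and 45.2 CPM in the STM2457 libraries of EpiSC, against 24.3 and 25.1 CPM in DMSO. Ddx28, a helicase of large subunit assembly, was higher in XEN and TSC at 0.91 and 0.75, Dhx30, another helicase, in XEN at 0.37, and Mrm3, a ribosomal RNA methyltransferase, in TSC at 0.97. Ybey, an endoribonuclease needed for the small subunit, was lower in EpiSC at -1.11 ± 0.23 (edgeR adjusted p = 0.0243), with 3.7 and 3.1 CPM in STM2457 and 8.7 and 6.0 CPM in DMSO.

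Of 5 mitochondrial ribosomal proteins with other names, Gadd45gip1 was higher in XEN at 0.67 ± 0.12 (edgeR adjusted p = 0.00522) and Dap3 lower at -0.40 ± 0.09 (adjusted p = 0.0249). Dap3, a GTP-binding protein of the small subunit, had 62.0, 62.8 and 55.2 CPM in STM2457, against 85.8, 76.9 and 74.2 CPM in DMSO. In the mean effect 1 of the 5 was higher and 2 lower, and edgeR called none of the 5 in TSC or EpiSC, where 2 had an unadjusted p under 0.05 in each and DESeq2 called 1 and 2. Of 15 translation factors, edgeR called 0 in each line and in the mean effect. At an unadjusted p under 0.05 there were 1, 2 and 1 in XEN, TSC and EpiSC and 7 in the mean, and DESeq2 called 0, 1, 0 and 2. The shares of all genes at that unadjusted threshold in edgeR were 17.3% in XEN, 13.4% in TSC, 14.8% in EpiSC and 25.7% in the mean. These shares apply to each list. Of 20 genes for charging mitochondrial tRNA, Yars2, the tyrosyl-tRNA synthetase, was higher in XEN at 0.48, and the mean effect had 2 higher and 2 lower. In TSC and EpiSC edgeR called 0 of the 20, with 4 and 6 at an unadjusted p under 0.05. DESeq2 called 3 of them in XEN, 2 in TSC, 2 in EpiSC and 8 in the mean, 4 higher and 4 lower. Of 14 genes for transcription of mitochondrial DNA and RNA processing, the elongation factor gene Tefm was higher in XEN at 0.81 ± 0.17 (adjusted p = 0.0143), and the mean effect had 4 higher and 0 lower. The summed share of messenger RNA from mitochondrial DNA was 1.28% and 1.41% of the counts in STM2457 and 1.08% and 1.12% in DMSO in EpiSC. It was 0.984% and 1.00% in STM2457 against 1.04% and 1.05% in DMSO in TSC, and 0.750% to 1.06% in STM2457 against 0.933% to 0.988% in DMSO in XEN.

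Summed over all members, the level was 3651 ± 105 CPM in STM2457 and 3120 ± 395 CPM in DMSO in XEN (SD, n = 3 each), 4453 ± 83.5 and 4378 ± 155 CPM in TSC, and 4779 ± 64.7 and 4427 ± 25.9 CPM in EpiSC (SD, n = 2 per arm). In EpiSC both STM2457 libraries, at 4734 and 4825 CPM, exceeded both DMSO libraries, at 4409 and 4446 CPM. In XEN the arms did not overlap either, at 3529 to 3716 CPM in STM2457 and 2715 to 3505 CPM in DMSO. In TSC they overlapped in this TMM scaling. As a share of all counts, without TMM, the TSC arms were apart. The members took 0.494% and 0.489% of the counts in STM2457 there, against 0.458% and 0.476% in DMSO. No test was made of these sums and shares.

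The balance of the subunits was read as the ratio of summed reads per kilobase of the Mrpl genes to those of the Mrps genes. This ratio reflects the number of genes summed, 49 Mrpl and 29 Mrps, as well as their levels. It was 2.54 ± 0.0484 in STM2457 and 2.51 ± 0.0428 in DMSO in XEN (SD, n = 3 each), with overlapping arms. In TSC it was 2.33 ± 0.0039 in STM2457 and 2.47 ± 0.0189 in DMSO, and in EpiSC 2.27 ± 0.0142 and 2.36 ± 0.0315 (SD, n = 2 per arm). In these lines both STM2457 libraries lay below both DMSO libraries. The differences were 0.02, -0.09 and -0.06 on the log2 scale in XEN, TSC and EpiSC. They were near 0 when each gene counted equally, at -0.002, -0.03 and -0.01 by the mean log2 CPM of the tested members. By that measure, which is not divided by length, the group means of large over small were 1.21 to 1.28. No test was made of these scores.

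**Figure D3:**
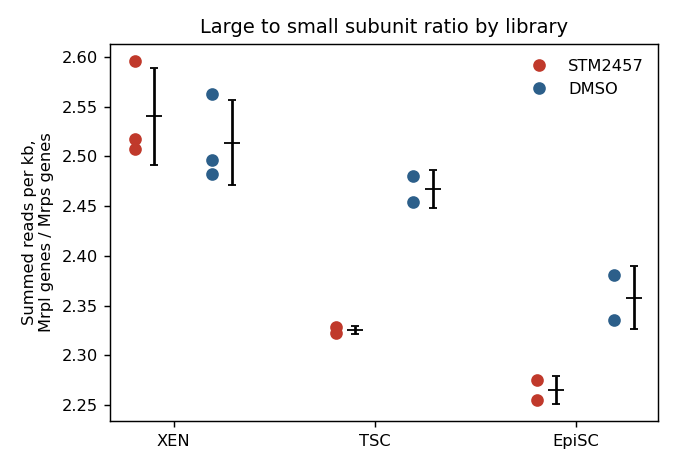
Ratio of summed reads per kilobase of large over small subunit genes in each library, STM2457 left of DMSO within each line (points, libraries; black marks, mean ± SD of 3 libraries per arm in XEN and 2 in TSC and EpiSC). The vertical axis does not start at 0; STM2457 libraries lie below DMSO libraries in TSC and EpiSC and overlap them in XEN.

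Between lines in DMSO, the direction of most members depended on scaling. A line cannot be told apart from its medium, genotype and depth, nor, for XEN, from its high share of mitochondrial ribosomal RNA. With TMM, TSC had 40 members above XEN and 6 below (59.7%, against 72.5% of all genes in edgeR, 36.5% higher and 36% lower), with a median log2 fold change of 0.35, whereas with scaling to the cytosolic ribosomal protein genes 6 were higher and 52 lower, with a median of -0.71. For EpiSC against XEN, 51 were higher and 7 lower with TMM (75.3%, against 71.7% of all genes, 36.6% higher and 35.1% lower; median 0.47), and 13 higher and 39 lower with the other scaling (median -0.31). For EpiSC against TSC, 18 were higher and 13 lower with TMM (40.3%, against 54.4% of all genes, 27.4% higher and 27% lower; median 0.09), and 36 higher and 4 lower with the other (median 0.37). That scaling moved all genes, members included, by about -1.07, -0.78 and 0.28 on the log2 scale in these pairs. With TMM the median member stood above the median gene in all of them, and a shift common to all genes cannot change that. Scaling to the cytosolic ribosomal protein genes called 75.4%, 73.2% and 51% of all genes in these pairs. Among the called genes of the whole table, the higher ones made up 19.5%, 25.8% and 66.4% with that scaling. With TMM they made up 50.3%, 51.1% and 50.4%. Among called members, 6 of 58, 13 of 52 and 36 of 40 were higher with that scaling. Scaling to nuclear protein-coding genes gave 35 higher and 13 lower for TSC against XEN and 42 and 8 for EpiSC against XEN. It called 72.6% and 71.5% of all genes in these 2 pairs. Between EpiSC and TSC, 19 members were called without TSC DMSO replicate 1 in place of 31, and 20 without TSC DMSO replicate 2 or EpiSC DMSO replicate 1.

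**Figure D4:**
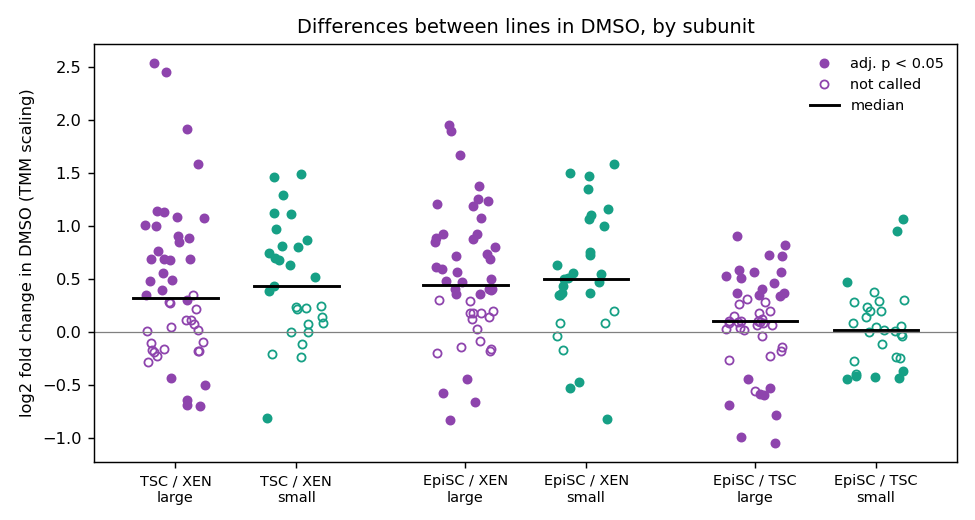
Log2 fold changes of the 77 tested members between lines in DMSO with TMM scaling, by subunit (filled points, adjusted p under 0.05 in edgeR; bars, median). Most points lie above 0 for TSC and EpiSC against XEN; with scaling to cytosolic ribosomal protein genes most called members of these pairs lie below 0.

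The leading differences between lines kept their direction and their call in both of these scalings, apart from those named for Mrpl45 between EpiSC and XEN and for Mrpl42. Mrpl23, a large subunit protein at the exit tunnel, had 69.2 and 80.6 CPM in TSC, against 11.1, 10.2 and 16.8 CPM in XEN in DMSO, a log2 fold change of 2.54 ± 0.16 (edgeR adjusted p = 3.63e-10). EpiSC stood between, at 51.0 and 48.5 CPM. Mrpl12, of the stalk, had 172 and 184 CPM in TSC and 127 and 114 CPM in EpiSC, against 27.1, 26.5 and 43.0 CPM in XEN. Its log2 fold changes were 2.46 ± 0.38 for TSC and 1.90 ± 0.38 for EpiSC against XEN. The XEN STM2457 libraries held it at 27.5, 36.7 and 82.2 CPM, so that 1 library stood apart. Mrpl45, which is known to anchor the ribosome to the inner membrane, had 135 and 135 CPM in TSC, against 67.8 and 68.3 CPM in EpiSC and 42.4, 30.1 and 35.1 CPM in XEN. The difference between EpiSC and XEN was 0.92 and became 0.15, not called (adjusted p = 0.301), with scaling to the cytosolic ribosomal protein genes. Mrpl12 was not called between EpiSC and TSC (adjusted p = 0.271).

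Mrpl38, of the central protuberance, was higher in TSC than in XEN by 1.58 ± 0.12, and Mrps27, an RNA-binding protein of the small subunit, by 1.49 ± 0.12 on the log2 scale. Against XEN, EpiSC also had more Mrps27 (58.7 and 58.1 CPM in EpiSC, against 21.1, 19.3 and 21.5 CPM in XEN), more Mrpl22, at the exit tunnel, by 1.67, and more Mrps34, by 1.58. Mrps6, a small subunit protein with a bacterial counterpart, was lower than in XEN in both other lines, at -0.82 in each. It had 13.3 and 15.1 CPM in TSC and 14.4 and 13.9 CPM in EpiSC, against 23.3, 26.2 and 25.5 CPM in XEN. Mrpl57 at -0.70 and -0.84, Mrpl16 at -0.69 and -0.66 and Mrpl43 at -0.64 and -0.57 were lower in both as well. Mrpl49 was lower in TSC at -0.50, and Mrps16, with a bacterial counterpart, in EpiSC at -0.53. Mrpl43 and Mrpl16 thus had both the higher DMSO level in XEN and a rise after STM2457 in each line.

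Between EpiSC and TSC, Mrps21, a small subunit protein with a bacterial counterpart, had 64.0 and 63.1 CPM in EpiSC, against 29.0 and 31.8 CPM in TSC, a log2 fold change of 1.07 ± 0.14 (edgeR adjusted p = 5.03e-06). Mrps34 followed at 0.95, Mrpl41 at 0.90, Mrpl22 at 0.82 and Mrpl47, near the exit tunnel, at 0.73. Mrpl14, with a bacterial counterpart at the subunit interface, had 19.1 and 15.8 CPM in EpiSC, against 38.4 and 33.7 CPM in TSC, a log2 fold change of -1.05 ± 0.15. Mrpl45 stood at -0.99, Mrpl10 at -0.78 and Mrpl38 at -0.69. Mrpl42 was at -0.60 with TMM and at -0.31, no longer called (adjusted p = 0.0655), with scaling to the cytosolic ribosomal protein genes.

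Members are compact genes. In the longest coding transcript of GENCODE release M21, their median length was 1339 bases, against 3133 for 14314 tested protein-coding genes, and their median longest exon 645 bases, against 1522. They had a median of 2.55 exon junctions per kilobase, against 2.76, and of 3.62 GGAC words per kilobase, against 4.19. GGAC is a common core of the sequence that METTL3 methylates, and a word is not a methylated site. The 5 members called in at least 2 lines had 1.43 to 2.65 junctions per kilobase, with a median of 2.18, and a median of 5.01 GGAC words per kilobase. Members with fewer junctions per kilobase tended to have the larger mean log2 effect, with a Spearman rho of -0.386 over the 77 members and -0.282 over all 14314 genes. The rho among members was -0.353 in XEN, -0.402 in TSC and -0.322 in EpiSC. It was -0.115 when the longest transcript of any type was taken, and -0.213 over all genes. For GGAC words per kilobase it was 0.0198. These are descriptions across genes measured in the same libraries, and genes are not independent replicates.

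**Figure D5:**
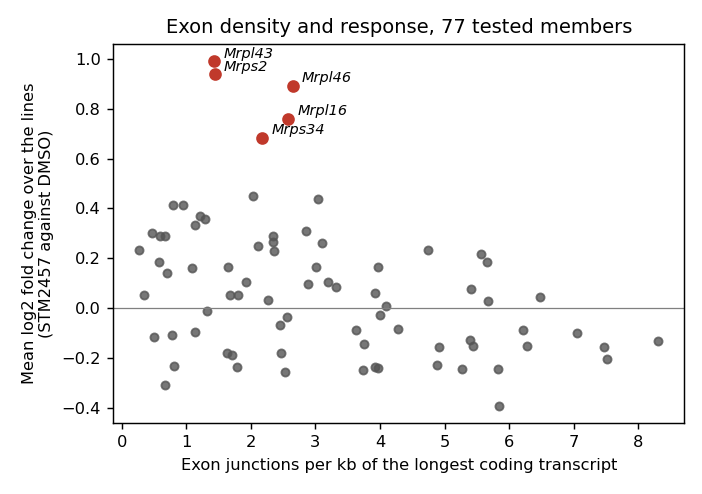
Mean log2 effect of STM2457 over the 3 lines against exon junctions per kilobase of the longest coding transcript, for the 77 tested members (points; the 5 called in at least 2 lines in red). The 5 lie between 1.43 and 2.65 junctions per kilobase, and members with more than these tend to lie near or below 0 in TMM scaling.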

How the data were processed

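The authors deposited raw counts, whole numbers for each gene in each library. Per the labels' protocols, total RNA was prepared with a stranded kit. Per the submitters' processing notes, FastQC, Trim Galore, STAR and featureCounts were used with GRCm39, versions not given. Names, exonic lengths and transcripts came by Ensembl identifier from GENCODE release M21 on GRCm38. Shared exonic bases and head-to-head starts were computed from its coordinates, which may differ from the GRCm39 annotation used for counting. Of 55416 identifiers, 3281 had no name. Promoters are RefSeq's on GRCm38.p6.

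In edgeR 4.0.16 under R 4.3.3, the 14 libraries were fitted together as 6 groups of line and treatment, with TMM, filterByExpr (minimum count 10, minimum total 15), robust quasi-likelihood F test, Benjamini-Hochberg adjustment over 18430 genes, two-sided, threshold 0.05. SEs were derived from log2 fold change and F. DESeq2 1.42.0 was an alternative. Counts were simulated for the XEN comparison with 200 of 18430 genes changed 2-fold. The edgeR fit recovered 63.5% of these, and 0.781% of its calls were unchanged genes. The simulation gave every gene and library the same spread and no pairing, unlike these data, so these shares hold for that setting only.

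Replicate numbers are in the labels. Same-numbered XEN libraries correlated at 0.22, 0.376 and 0.337 after group means were removed, others at -0.29 to -0.0196, so the numbers pair the XEN libraries; in TSC and EpiSC they share only a number. No replicates agreed within sampling noise (chi-square per degree of freedom 2.10 to 20.2 between replicates). Members and lists were chosen with earlier results of these data known. Named were all members called in a treatment comparison (at most 15, by p), the 5 largest changes in each, the 5 leading called rises and falls per pair of lines (groups not overlapping, higher group at least 5 CPM), the 5 highest and lowest by RPKM, and Mrps30, Mrps18a and Mrps36.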

Additional observations from a re-analysis of the deposited data

How the results depend on the processing

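With other settings the called members numbered 11 in TSC and 15 in EpiSC by DESeq2, 5 in XEN and 8 in EpiSC with scaling to cytosolic ribosomal protein genes (0.765% and 0.77% of all genes), 9 in EpiSC with no filter on low counts (1.84%), and 2 in XEN, 32 in TSC, 45 in EpiSC (30.2% and 29.2% of all genes in TSC and EpiSC) and 51 for EpiSC against TSC (75.7%) when only the libraries compared entered the fit. With the replicate block they numbered 24 in XEN, all 12 calls kept, 15 in TSC (9 higher, 6 lower) and 22 in EpiSC (16 higher, 6 lower), where 11% and 13.2% of all genes were called in TSC and EpiSC, and 42 for the mean effect, where 25.6% were. No paired analysis was possible for the pairs of lines because the block was set within lines, and the same number in different lines marks different cells. For fits that leave out 1 library, here and above, no share of all genes called is given. Whether members lost calls faster than other genes in those fits was not tested. Leaving out each library gave 9 to 16 calls in XEN, 0 to 1 in TSC, 1 to 3 in EpiSC, 13 to 33 for the mean effect, 0 to 0 for the difference between lines, 39 to 53 for TSC against XEN, 51 to 60 for EpiSC against XEN and 19 to 28 for EpiSC against TSC. The log2 subunit ratio (STM2457 minus DMSO) then ran -0.000566 to 0.0291 in XEN, -0.09 to -0.08 in TSC and -0.07 to -0.04 in EpiSC, and in DMSO -0.04 to -0.01 for TSC minus XEN, -0.11 to -0.08 for EpiSC minus XEN and -0.08 to -0.05 for EpiSC minus TSC. Summed counts gave -0.0950 for STM2457 minus DMSO in TSC, -0.0786 for TSC minus XEN and -0.00164 for EpiSC minus TSC; mean log2 CPM gave -0.0268 and -0.0148 for STM2457 minus DMSO in TSC and EpiSC, -0.0184 for EpiSC minus XEN and 0.0286 for EpiSC minus TSC; assignment by structure gave -0.0489 for TSC minus XEN and -0.13 for EpiSC minus XEN. Of 1100 values of named members in the treatment comparisons, 934 kept direction and call, 85 lost and 70 gained a call, and 11 reversed. None of the reversed was a call. Scaling to cytosolic ribosomal protein genes put Mrpl51 in TSC at 0.12, Mrps18a in TSC at 0.0801, Mrps36 in TSC at 0.0676 and Mrps36 in the mean effect at 0.00245. Leaving out 1 library put Mrpl51 at -0.16 to 0.12 and Mrps18a at -0.13 to 0.00658 in TSC, Mrps36 at -0.16 to 0.0113 in TSC, Mrps18a at -0.00417 to 0.20 in XEN and Mrps36 at -0.215 to 0.0744 in XEN. Of 460 values of the members leading the pairs of lines by the naming rule, 459 kept direction and call, Mrpl42 being the exception; Mrpl45 between EpiSC and XEN, outside that rule, also lost its call. Of the 38 calls of named members after STM2457, a set without most falls of the mean effect, 13 held throughout. The cause was not tested.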
